A study of Mus musculus with 12 samples.

Results

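The 10 mRNAs described here encode actins, proteins that bind and turn over actin, a myosin and an intermediate filament protein: Actb, Actg1, Cfl1, Pfn1, Tmsb4x, Tmsb10, Coro1a, Lcp1, Vim and Myh9. They were chosen by their level, as abundant cytoskeletal messages, so levels are given as a description without a test, and they are 10 of 49585 genes counted in each of 12 libraries. All 10 were found by symbol, lay in the annotation and passed the filter on low counts in both kinds of library. The counts did not bear out the word abundant for 3 of them: Actg1 was low and Vim moderate in both kinds of library, and Tmsb10 was moderate among the ribosome footprints, where few reads were counted on it. Only reads that aligned to 1 place were counted. Since Actg1 and Tmsb10 share much of their sequence with other genes, their low counts leave their true levels uncertain.

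Rnmt encodes the RNA cap guanine-7 methyltransferase, and the study compared the mRNAs and the translated mRNAs of activated CD4 T cells with and without this enzyme. Control mice were Rnmt fl/fl without CD4cre (genotype label Rnmt fl/fl CD4cre -), and Rnmt cKO mice were Rnmt fl/fl with CD4cre (Rnmt fl/fl CD4cre +), so both groups carried loxP sites around exon 3 of Rnmt and only the second carried the Cre transgene, which the Cd4 promoter drives from the double-positive stage of thymocyte development. All mice were on a C57B6/J background, and their ages were not given in the sources used here. The paper calls its mice female in the methods of another experiment, on RNA crosslinked to a protein. CD4 T cells were isolated from lymph nodes with a kit for naive cells, activated for 20 h on plates coated with anti-CD3 (5 ug/ml) and anti-CD28 (1 ug/ml), and given 0.1 mg/ml cycloheximide for 1 min before lysis. For each genotype, 3 libraries of total cytoplasmic RNA and 3 of ribosome-protected fragments (RPF), the pieces of mRNA that a ribosome shields from nuclease, were sequenced. Reads counted on genes numbered 18915961 to 19111659 in the control and 15079703 to 22629563 in the Rnmt cKO libraries of total RNA. In RPF they numbered 6786164 to 10661356 and 4123271 to 10166729, and the shallowest library was Rnmt cKO replicate 3.

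Actin is present in cells as free monomers and as filaments, and cells move and change shape by adding monomers at one end of a filament and taking them off at the other. Thymosins and profilin hold the monomers, cofilin severs old filaments, coronin and the Arp2/3 complex act at branched networks, plastin bundles filaments and non-muscle myosin pulls on them. In T cells these proteins build the contact with the antigen-presenting cell and drive migration, and the transcription factor SRF, held in check by monomeric actin through its cofactors, controls many of their genes.

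As a check of the genotype labels, Rnmt was counted first. In total RNA it stood at 95.5, 94.1 and 94.3 CPM (counts scaled to library size, with the trimmed mean of M-values, TMM) in the control libraries and at 29.3, 32.4 and 30.4 CPM in Rnmt cKO (log2 fold change -1.62 ± 0.06 SE, adjusted p = 5.8e-06, edgeR quasi-likelihood test). In RPF it stood at 104.1, 87.9 and 98.9 CPM in control and at 10.5, 10.4 and 9.60 CPM in Rnmt cKO (-3.24 ± 0.10, adjusted p = 4.8e-06). The 2 groups did not overlap in either kind of library. Of the markers of the labelled cell type, all 8 CD4 T cell genes were counted in every group, and 5 of the 8 decreased in Rnmt cKO total RNA: Cd3g (log2 fold change -1.23, adjusted p = 7.5e-05), Lck (-0.90, adjusted p = 3.2e-05), Cd3d (-0.74, adjusted p = 0.00073), Cd5 (-0.65, adjusted p = 0.0032) and Trac (-0.33, adjusted p = 0.017). Cd4 stood at means of 325 CPM in control and 298 CPM in Rnmt cKO (-0.16, adjusted p = 0.1), and it, Cd28 and Cd3e did not pass. The same 5 genes decreased in RPF. Over all genes tested, 28.0% decreased in total RNA and 15.7% in RPF.

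Since near-identical gene copies decide which reads can be counted, the paralogues were compared first. The authors counted only reads that aligned to 1 place. The coding sequences of Actb and Actg1 were both 1125 bases long and identical at 997 of them (88.6%), and their longest common run was 62 bases (coding bases 889 to 950 of both). Those of Tmsb4x and Tmsb10 were 132 bases long and identical at 92 (69.7%). The first 45 coding bases of each pair, from the GENCODE vM21 transcripts, are given here with the differing bases of a pair in capitals. They show what sets the copies apart in this stretch: 9 bases differ in the actin pair and 12 in the thymosin pair.
Actb: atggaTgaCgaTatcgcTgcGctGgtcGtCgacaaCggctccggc
Actg1: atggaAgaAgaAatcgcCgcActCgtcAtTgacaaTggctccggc
Tmsb4x: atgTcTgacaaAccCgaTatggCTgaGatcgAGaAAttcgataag
Tmsb10: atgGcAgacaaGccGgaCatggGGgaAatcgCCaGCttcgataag

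Copies elsewhere in the genome shared more sequence than the paralogues did. Each transcript was divided into all windows of 30 bases, and a window was counted as shared when it also lay in an annotated transcript of another gene. Of the coding windows of Actg1, 100% were shared, 94.0% of them with the processed pseudogene Gm12715. For Tmsb10 the share was also 100%, with 80.6% in the processed pseudogene Gm3788, and for Cfl1 it was 70.4%. Actb shared 45.9% of its coding windows and Lcp1 35.3%. The other 5 shared little: Pfn1 2.30%, Myh9 2.22%, Vim 0.731%, and Tmsb4x and Coro1a none of 103 and 1354 windows. Over whole transcripts, untranslated parts included, the shares fell to 57.2% for Actg1 and 52.6% for Tmsb10. Counts of the 5 genes with many shared windows are therefore uncertain as levels, and windows shared with unannotated copies were not searched.

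Per length, Tmsb4x and Actb were among the most abundant messages of these cells. Levels per length were given as RPKM, over the exons of 1 transcript for total RNA and over its coding part for RPF. In control total RNA the order was Tmsb4x (5839 ± 56.4 RPKM, SD, n = 3), Actb (3531 ± 117), Pfn1 (1248 ± 75.4), Coro1a (861 ± 48.4), Lcp1 (194 ± 9.89), Cfl1 (168 ± 6.59), Myh9 (145 ± 9.80), Tmsb10 (121 ± 4.12), Vim (18.5 ± 4.17) and Actg1 (1.40 ± 0.346), and no neighbours in this order overlapped between their 3 libraries. Of 10268 protein-coding genes ranked by this level, Tmsb4x was number 1, Actb 3, Pfn1 15 and Coro1a 21. Vim was number 3574 and Actg1 9073, where the median gene stood at 11.1 RPKM. In Rnmt cKO the order was the same, and Lcp1 (155 ± 12.3 RPKM) and Cfl1 (145 ± 9.99) overlapped.

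In control RPF the order of levels was Tmsb4x (32530 ± 2512 RPKM), Actb (15148 ± 1290), Pfn1 (7481 ± 417), Coro1a (2002 ± 113), Cfl1 (1945 ± 95.9), Lcp1 (778 ± 16.1), Myh9 (609 ± 33.5), Vim (65.9 ± 15.8), Tmsb10 (45.3 ± 3.36) and Actg1 (1.16 ± 0.482). Only Coro1a and Cfl1 overlapped among neighbours. Of 10321 protein-coding genes, Tmsb4x, Actb and Pfn1 were numbers 1, 2 and 5. Tmsb10 was number 409 in control total RNA and 3653 in RPF, with 38 to 61 counts per control library of RPF, which is a difference in rank between 2 kinds of library that also differ in how much of this gene can be counted.

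Together the 10 genes held 2.24, 2.26 and 2.21% of the counts on protein-coding genes in the control libraries of total RNA (mean 2.24% ± 0.0265 SD) and 1.94, 1.77 and 1.94% in Rnmt cKO (1.88% ± 0.0959). In RPF they held 3.72, 3.38 and 3.68% in control (3.59% ± 0.188) and 2.64, 2.57 and 2.63% in Rnmt cKO (2.62% ± 0.0374). Every Rnmt cKO library held a smaller share than every control library of its kind. Actb and Tmsb4x made up most of it: of the counts on the 10 genes in control, Actb held 41.9% in total RNA and 51.0% in RPF, and Tmsb4x 27.7% and 12.9%.

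**Figure D1:**
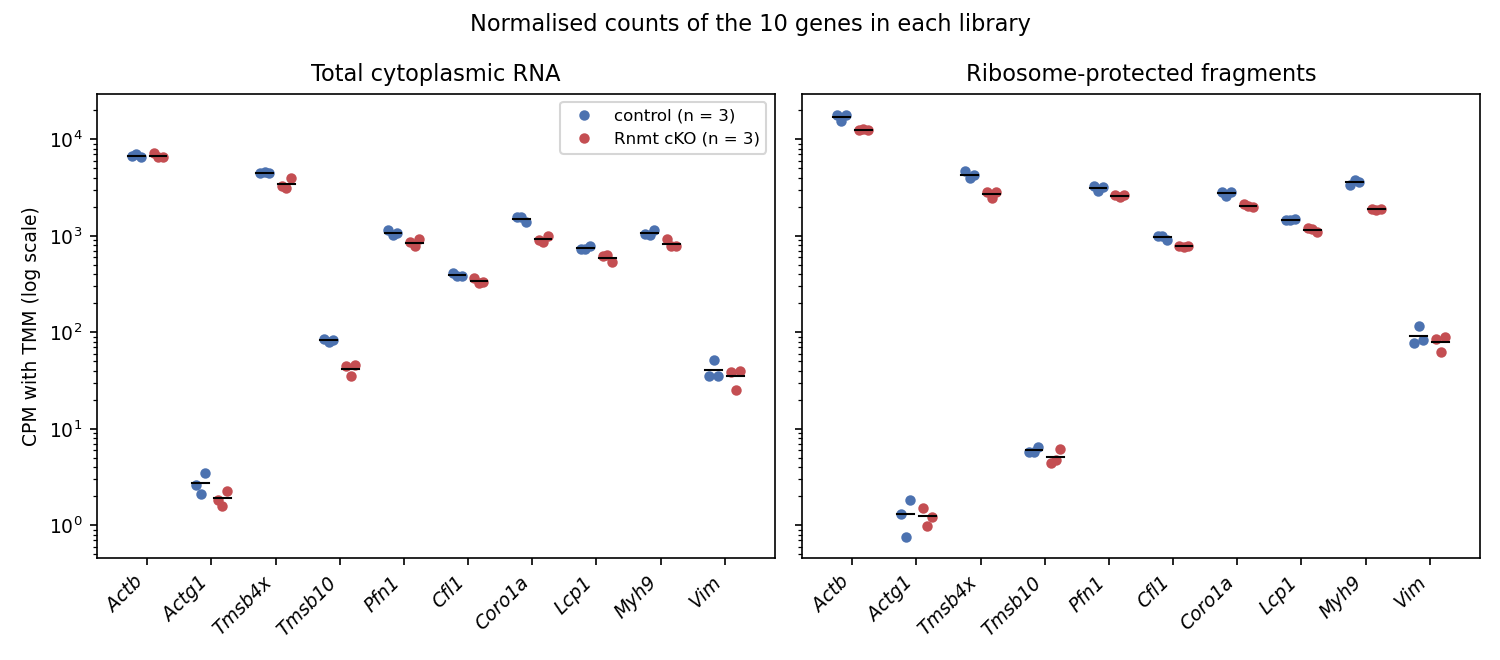
Each point is 1 library (CPM with TMM, log axis), left for total RNA and right for RPF, with control in blue, Rnmt cKO in red and the mean of 3 as a black line. In total RNA the Actb points of both genotypes lie between 6523 and 7187 CPM, whereas in RPF every Rnmt cKO point of Actb lies below every control point.

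In the comparison of total RNA, 7 of the 10 genes decreased in Rnmt cKO cells (Cfl1, Pfn1, Tmsb4x, Tmsb10, Coro1a, Lcp1 and Myh9) and none increased, while Actb, Actg1 and Vim did not pass the test. For comparison, 28.0% of the 11519 genes tested decreased and 26.3% increased, and of the 497 abundant ones (a mean log2 CPM of 8 or more), 30.2% decreased and 31.4% increased. The same 7 members had their highest Rnmt cKO value under their lowest control value, as did 32.3% of all genes tested. The count of 0 increased members was also 0 at an unadjusted p under 0.05, with edgeR's exact test and with DESeq2, here and in RPF. The median log2 fold change of the members was -0.36, beside 0.00 for all genes tested and 0.04 for the abundant ones. Fold changes were relative to the RNA sequenced, so that a change in mRNA per cell shared by all genes is not part of them, and in these bulk samples fewer expressing cells and less RNA per cell cannot be told apart.

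In RPF, Actb, Cfl1, Pfn1, Tmsb4x, Coro1a, Lcp1 and Myh9 decreased and none of the 10 increased; Actg1, Tmsb10 and Vim did not pass. Here 15.7% of the 11428 genes tested decreased and 14.1% increased, and among the 774 abundant ones 23.6% decreased and 15.9% increased. In 7 members, as in 24.3% of all genes, the highest of the 3 Rnmt cKO values was under the lowest of the 3 control values. The median of the members was -0.33, beside 0.01 for all genes and -0.02 for the abundant ones. Of the 7 abundant members, all 7 decreased in RPF and 6 in total RNA.

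Translational efficiency (TE), the ratio of RPF to total RNA, was tested as the difference between the genotype effects in the 2 kinds of library, and it shares its counts with both comparisons above. Actb and Myh9 decreased in TE and Tmsb10 increased, whereas the other 7 did not pass. Over all 10668 genes tested for TE, 6.57% decreased and 3.24% increased, and over the 635 abundant ones 15.0% decreased and 8.03% increased. Of the 1047 genes called in TE 33.0% had increased, a share of 44.3% with upper-quartile scaling, 26.6% with library size without TMM and 21.6 to 31.1% in the fits without 1 library, the lowest without control replicate 2. The median of the members was -0.02, beside -0.03 for the abundant genes and 0.04 for all genes.

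**Figure D2:**
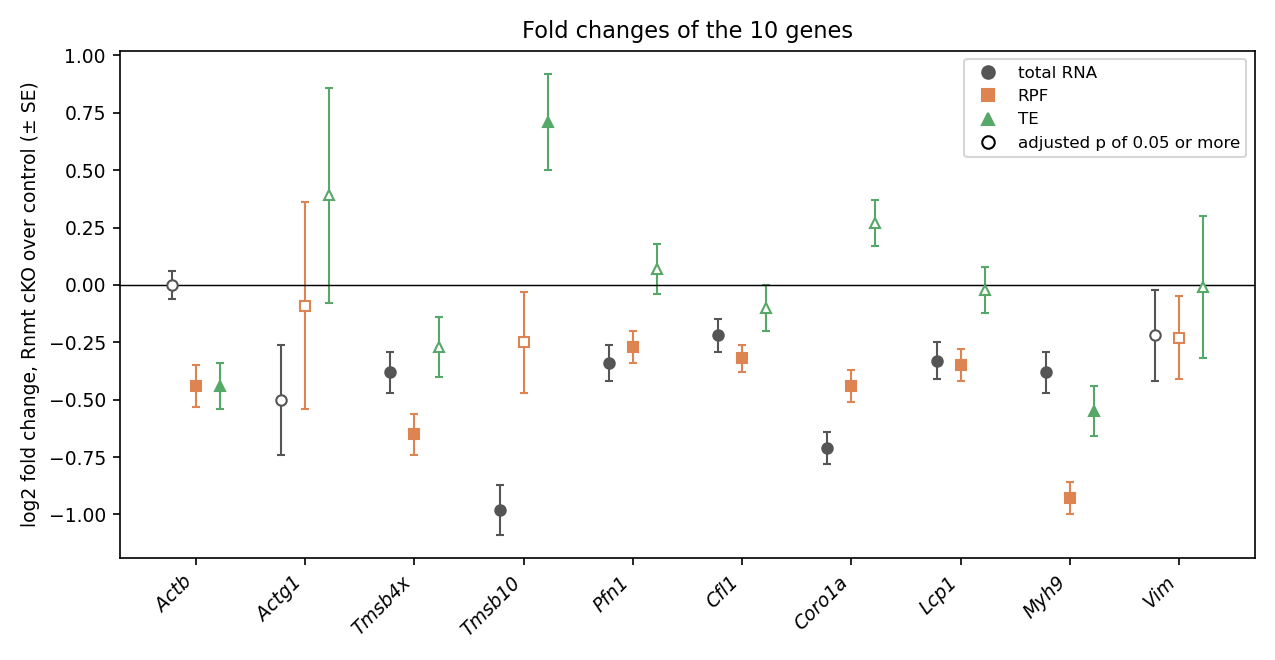
Points give the log2 fold change between Rnmt cKO and control, with standard errors as bars, for total RNA (circles), RPF (squares) and TE (triangles), filled where the adjusted p was below 0.05. Actb lies at 0.00 in total RNA and at -0.44 in RPF, and Tmsb10 has the lowest value in total RNA, at -0.98.

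The actins form the filament itself. Actb (ENSMUSG00000029580, mm10 chr5:142903115-142906754, minus strand), which encodes beta-actin, was counted at 6714, 7031 and 6595 CPM in the control libraries of total RNA and at 7187, 6620 and 6523 CPM in Rnmt cKO. The genotypes overlapped, and the log2 fold change was 0.00 ± 0.06 SE (adjusted p = 0.99). Its RPF values were 18025, 15374 and 17724 CPM in control and at 12439, 12821 and 12431 CPM in Rnmt cKO. All 3 Rnmt cKO libraries were below the lowest control, by a log2 fold change of -0.44 ± 0.09 (adjusted p = 0.007), which held in each of 6 fits without 1 library. The TE of Actb fell by 0.44 on the log2 scale (SE 0.10, adjusted p = 0.015). Without control replicate 1, control replicate 3 or Rnmt cKO replicate 1 this adjusted p rose to 0.11, 0.069 and 0.13, with values of -0.40, -0.39 and -0.39.

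Actg1 (ENSMUSG00000062825, chr11:120345690-120348542, minus strand) encodes gamma-actin, the other cytoplasmic actin. It was counted with 40 to 64 reads in the control and 27 to 53 in the Rnmt cKO libraries of total RNA, which came to 2.60, 2.12 and 3.45 CPM and to 1.83, 1.60 and 2.29 CPM. In RPF, 5 to 15 reads per library were counted. The genotypes overlapped in both kinds of library, and the log2 fold changes were -0.50 ± 0.24 SE in total RNA (adjusted p = 0.11), -0.09 ± 0.45 in RPF (adjusted p = 0.89) and 0.39 ± 0.47 in TE (adjusted p = 0.66). A difference between genotypes was not detectable at these counts of uniquely aligned reads, and with all of its coding windows shared with other genes its level is uncertain. The pseudogene Gm12715 itself had 1 to 6 counts per total RNA library and 4 to 11 per RPF library.

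Thymosins bind actin monomers and keep them from filaments. Tmsb4x (ENSMUSG00000049775, chrX:167207093-167209315, minus strand), thymosin beta-4, was counted at 4474, 4532 and 4447 CPM in control total RNA and at 3246, 3137 and 3951 CPM in Rnmt cKO. The control libraries lay close together, and Rnmt cKO replicate 3 lay nearest to them. The log2 fold change was -0.38 ± 0.09 SE (adjusted p = 0.0072), and without Rnmt cKO replicate 1 its adjusted p was 0.054. In RPF the gene was counted at 4644, 3984 and 4254 CPM in control and at 2871, 2477 and 2842 CPM in Rnmt cKO, with no overlap and a log2 fold change of -0.65 ± 0.09 (adjusted p = 0.0014). Its TE differed by -0.27 ± 0.13, which did not pass (adjusted p = 0.23).

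Tmsb10 (ENSMUSG00000079523, chr6:72957347-72958748, minus strand), thymosin beta-10, had the largest fall of the members in total RNA. It went from 85.7, 80.1 and 83.8 CPM in control to 45.1, 34.9 and 46.2 CPM in Rnmt cKO, a fold of 0.506 (log2 -0.98 ± 0.11 SE, adjusted p = 0.00018). Its RPF values were 5.73, 5.73 and 6.50 CPM in control and at 4.45, 4.79 and 6.15 CPM in Rnmt cKO (-0.25 ± 0.22, adjusted p = 0.42). These RPF values overlapped and rested on 25 to 61 counts a library. TE rose by 0.71 (SE 0.21, adjusted p = 0.046), a call that was lost in each of the 6 fits without 1 library (adjusted p of 0.059 to 0.18, log2 values of 0.62 to 0.84). All coding windows of this gene were shared with other genes. Of these Gm9844, annotated as protein coding and holding 41.7% of the coding windows, had 32 to 116 counts in each RPF library, against 32 to 107 in each of total RNA, and the part of shared sequence in the RPF and TE values was not tested.

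Profilin feeds monomers to growing filaments and cofilin takes old filaments apart. Pfn1 (ENSMUSG00000018293, chr11:70651850-70654644, minus strand), profilin 1, was counted at 1144, 1016 and 1062 CPM in control total RNA and at 855, 776 and 917 CPM in Rnmt cKO, with no overlap (log2 fold change -0.34 ± 0.08 SE, adjusted p = 0.008). The RPF libraries gave 3247, 2940 and 3240 CPM in control and at 2636, 2537 and 2666 CPM in Rnmt cKO (-0.27 ± 0.07, adjusted p = 0.025). The RPF call passed in 2 of the 6 fits without 1 library, with adjusted p up to 0.094: it was lost without control replicate 1 (0.077), control replicate 3 (0.094), Rnmt cKO replicate 1 (0.07) and Rnmt cKO replicate 2 (0.054). TE differed by 0.07 ± 0.11 (adjusted p = 0.73).

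Cfl1 (ENSMUSG00000056201, chr19:5490455-5495201, plus strand), cofilin 1, was counted at 413, 387 and 385 CPM in control total RNA and at 367, 323 and 331 CPM in Rnmt cKO. The highest Rnmt cKO library was just below the lowest control, and the log2 fold change was the smallest of those past the threshold, at -0.22 ± 0.07 SE (adjusted p = 0.03). This call was lost without control replicate 1 (adjusted p = 0.11), control replicate 2 (0.058), Rnmt cKO replicate 2 (0.11) or Rnmt cKO replicate 3 (0.07). In RPF the gene was counted at 991, 1001 and 914 CPM in control and at 778, 760 and 792 CPM in Rnmt cKO (-0.32 ± 0.06, adjusted p = 0.0075), a call kept without any 1 library. TE differed by -0.10 ± 0.10 (adjusted p = 0.56).

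Coro1a and Lcp1 are the forms of coronin and plastin that blood cells use. Coro1a (ENSMUSG00000030707, chr7:126699773-126707787, minus strand), coronin 1A, was counted at 1551, 1554 and 1406 CPM in control total RNA and at 908, 863 and 994 CPM in Rnmt cKO. The groups were well apart, with a fold of 0.613 (log2 -0.71 ± 0.07 SE, adjusted p = 0.00017). Among footprints it stood at 2864, 2588 and 2853 CPM in control and at 2122, 2042 and 1978 CPM in Rnmt cKO (-0.44 ± 0.07, adjusted p = 0.0033). Both calls held without any 1 library. TE differed by 0.27 ± 0.10 (adjusted p = 0.12), which did not pass the threshold over all genes.

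Lcp1 (ENSMUSG00000021998, chr14:75131101-75230842, plus strand), L-plastin, was counted at 725, 721 and 789 CPM in control total RNA and at 614, 629 and 541 CPM in Rnmt cKO (-0.33 ± 0.08, adjusted p = 0.0079). In RPF it was counted at 1451, 1441 and 1498 CPM in control and at 1199, 1168 and 1083 CPM in Rnmt cKO (-0.35 ± 0.07, adjusted p = 0.0062). The genotypes did not overlap in either kind of library, and the 2 fold changes were alike, with a TE difference of -0.02 ± 0.10 (adjusted p = 0.94).

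Myh9 (ENSMUSG00000022443, chr15:77760587-77842175, minus strand) encodes the heavy chain of non-muscle myosin IIA, the motor of the cell cortex. It was counted at 1055, 1015 and 1156 CPM in control total RNA and at 918, 780 and 781 CPM in Rnmt cKO (-0.38 ± 0.09, adjusted p = 0.0065). Among footprints it stood at 3372, 3765 and 3597 CPM in control and at 1894, 1837 and 1898 CPM in Rnmt cKO, the largest fall of the members in that kind of library, to a fold of 0.524 (log2 -0.93 ± 0.07, adjusted p = 0.0001). The Rnmt cKO libraries of RPF lay close together and far below the control. TE fell by 0.55 (SE 0.11, adjusted p = 0.0082), and without control replicate 2 or Rnmt cKO replicate 1 its adjusted p was 0.065 and 0.052, at -0.47 and -0.48.

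Vim (ENSMUSG00000026728, chr2:13573927-13582826, plus strand) encodes vimentin, an intermediate filament protein. It was counted at 35.4, 51.1 and 35.2 CPM in control total RNA and at 39.1, 25.5 and 39.8 CPM in Rnmt cKO (-0.22 ± 0.20, adjusted p = 0.38). The RPF libraries gave 76.6, 117.4 and 82.4 CPM in control and at 85.3, 62.2 and 88.3 CPM in Rnmt cKO (-0.23 ± 0.18, adjusted p = 0.37). In both kinds of library control replicate 2 was the highest and Rnmt cKO replicate 2 the lowest, and the other 4 lay between them. TE differed by -0.01 ± 0.31 (adjusted p = 0.99). Of its coding windows 0.731% were shared with other genes.

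The ratio of footprints to mRNA was then described for each pair of libraries of 1 replicate number, as the log2 of RPF RPKM over total RNA RPKM. In control it was highest in Cfl1 (3.50, 3.61 and 3.49), above 97.4% of 9985 protein-coding genes, and lowest in Tmsb10 (-1.52, -1.42 and -1.30), above 1.04% of them. The median gene stood at 1.23. Pfn1 (mean 2.58 ± 0.05 SD), Tmsb4x (2.48 ± 0.12), Actb (2.10 ± 0.17), Myh9 (2.07 ± 0.14), Lcp1 (2.00 ± 0.04) and Vim (1.83 ± 0.06) lay above that median, Coro1a (1.22 ± 0.14) at it and Actg1 (-0.33 ± 0.32) below it, above 6.78% of the genes. In Rnmt cKO the ratio of Actb was 1.56, 1.72 and 1.70, below its control values of 2.20, 1.90 and 2.20, and that of Myh9 was 1.38, 1.57 and 1.62, below 2.01, 2.23 and 1.98. The order of genes depends on which length divides the total RNA: over coding length for both kinds, Tmsb4x stood at -0.07 in control, below the median gene at 0.19, and Cfl1 at 1.29. Tmsb10, Actg1 and Cfl1 shared 100%, 100% and 70.4% of their coding windows with other genes. Over whole transcripts they shared 52.6%, 57.2% and 28.2%. Only uniquely aligned reads were counted, and the part of shared sequence in these ratios was not tested.

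**Figure D3:**
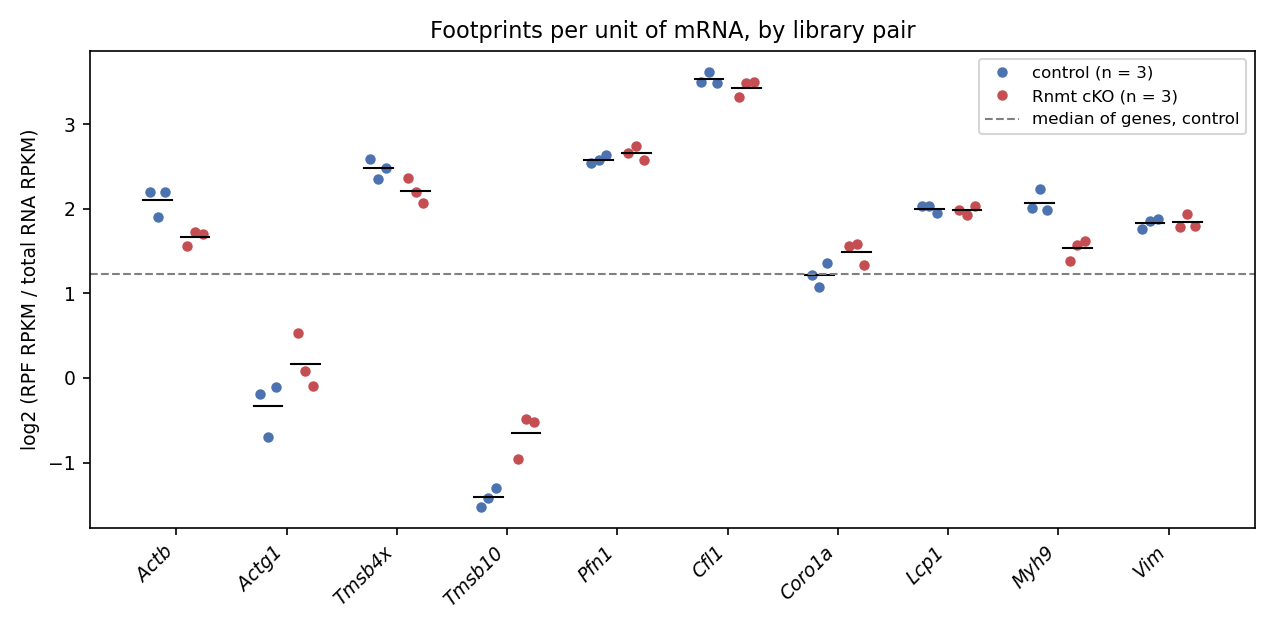
Each point is the log2 ratio of RPF RPKM to total RNA RPKM in 1 pair of libraries, with control in blue, Rnmt cKO in red, the mean of 3 as a black line and the median of all protein-coding genes in control (1.23) as a dashed line. The Rnmt cKO points of Actb and Myh9 lie below their control points and those of Tmsb10 above.

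Sequences at the transcription starts of the members were compared, because the cap that Rnmt methylates is joined to the first base of a transcript. RefSeq promoters (GRCm38.p6, the same assembly as mm10) were held for 9 of the 10 members, in 13 entries; Actb had no entry. The 10 bases before and, in capitals, the 10 bases from the annotated start are given for the members with the larger changes and for Vim, the only one with an entry that starts with C.
Tmsb10: ccacaaccctACACCACACA
Coro1a: ccgggcctccATGAGCTCCG
Tmsb4x: tacgagtgacATCACCTCAT
Myh9: cccgccctccTCTTGGAAGG
Vim: ttgtccagtcCTCTGCCACT

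These are the first listed entries, with starts at chr6:72958748, chr7:126704816, chrX:167209218, chr15:77842175 and chr2:13574311. Over all 32851 mouse promoter entries, 16.3% started with C, and 2.51% started with C at the head of at least 5 pyrimidines in a row, the form of a terminal oligopyrimidine tract. No entry of the 9 members had the second form at its annotated start, and the starts that these cells use were not measured here. The CArG box is the element that SRF binds. Of all promoter entries, 1.47% held it on either strand. Among the 9 members it was found in 1, Actg1, 90 bases before the start. Its window of 30 bases (chr11:120348566-120348595, minus strand) is shown with the box in capitals.
Actg1: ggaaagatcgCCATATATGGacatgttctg

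The letters TATAAA were in the promoters of Vim and Myh9 (12.4% of all promoter entries). GGGCGG was in at least 1 entry of 7 of the 9 members (32.7% of all promoter entries). Both were searched on either strand within the 250 bases before the start. A member had up to 3 entries, so a count of members and a share of entries are unlike units. These matches are a description of letters and not of bound factors.

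The genes whose values were most like those of Actb over the 12 libraries were found by Pearson correlation of log2 CPM, each kind of library centred on its own mean, among 2712 genes whose mean log2 CPM was 6 or more in both kinds. They were Wdr1 (r = 0.94), Exoc3 (0.93), Cdc5l (0.92), Msn (0.91) and Rchy1 (0.90). Wdr1, which helps cofilin to take filaments apart, had log2 fold changes of 0.01 in total RNA and -0.28 in RPF, and Msn, moesin, which ties filaments to the membrane, had 0.00 and -0.24. Of the members, Myh9 was nearest to Actb (0.83) and Coro1a the farthest of the 6 that reached that level (0.51). The libraries share genotype and depth, so these correlations describe the samples and carry no p-value.

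Lists of the wider cytoskeleton, written from gene names, gave 101 genes tested in total RNA and 102 in RPF. In total RNA 28 decreased (27.7%) and 25 increased (24.8%), with a median of 0.01, near the 28.0% and 26.3% of all genes tested. In RPF 32 decreased (31.4%) and 14 increased (13.7%), with a median of -0.07, beside 15.7% and 14.1% of all genes. In TE 11 of 101 decreased (10.9%) and 4 increased (3.96%), beside 6.57% and 3.24% of all genes. The single lists rest on 3 to 17 genes each. The members thus had a lower median than these genes in both kinds of library, a difference that was not tested because the members had been chosen.

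Of the 9 genes of the Arp2/3 complex, which starts branched filaments, 3 decreased (33.3%) and none increased in each of total RNA and RPF (medians -0.18 and -0.16), and none passed in TE, where 2 lower and 1 higher had an unadjusted p under 0.05 and DESeq2 called 1 as decreased. Arpc1b had the largest fall in total RNA (log2 -0.75 ± 0.07, adjusted p = 0.00012), from 377 ± 18.8 to 224 ± 17.0 CPM (SD, n = 3). Of 17 nucleation promoters and formins tested, 7 decreased (41.2%) and 4 increased (23.5%) in total RNA and 5 decreased (29.4%) and 3 increased (17.6%) in RPF (medians 0.17 and -0.03). Cyfip2, a subunit of the WAVE complex, fell most (-0.64 ± 0.12, adjusted p = 0.0022), and Nckap1, another subunit, rose most (1.41 ± 0.25, adjusted p = 0.002), from 4.07 to 10.8 CPM. In TE the formin Fmnl1 was the 1 gene of that list to decrease (-0.81 ± 0.15, adjusted p = 0.005).

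Of 15 genes of actin turnover and capping, 5 decreased (33.3%) and 3 increased (20.0%) in total RNA, and 8 decreased (53.3%) and none increased in RPF (medians 0.01 and -0.28). Capg, which caps filament ends, fell most (-1.69 ± 0.17, adjusted p = 0.00015), from 122 ± 26.3 to 37.7 ± 6.27 CPM. Capza2, a subunit of capping protein, rose in total RNA (0.44 ± 0.06, adjusted p = 0.00069) but decreased in RPF (-0.28 ± 0.05, adjusted p = 0.0055) and in TE (-0.72 ± 0.08, adjusted p = 0.00013). Its sister Capza1 had a TE change of nearly the same size, the largest of the list (-0.73 ± 0.17, adjusted p = 0.019), a call kept in 4 of 6 fits without 1 library. Among bundlers and cross-linkers, 5 of 12 increased (41.7%) and none decreased in total RNA, and in RPF 2 of 13 (15.4%) went each way (medians 0.13 and 0.19). Marcks, a filament-binding protein of the membrane, rose most (2.62 ± 0.56, adjusted p = 0.005), from 5.72 ± 2.56 to 35.3 ± 23.2 CPM with a wide spread, and the cross-linker Flna fell most in TE (-0.89 ± 0.11, adjusted p = 0.00027).

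Of 13 myosin and tropomyosin genes, 3 decreased (23.1%) and 5 increased (38.5%) in total RNA (median 0.09), and in RPF 5 increased and none decreased (median 0.21; 1 fell at an unadjusted p under 0.05), unlike the heavy chain gene Myh9 above. Myl6, a light chain that sits on the same motor, fell in total RNA (-0.71 ± 0.09, adjusted p = 0.00037), and its TE rose (0.86 ± 0.25, adjusted p = 0.047), though in only 1 of 6 fits without 1 library. Myh10, the heavy chain of non-muscle myosin IIB, rose from 0.890 to 3.37 CPM (1.92 ± 0.31, adjusted p = 0.0013) at a level far below that of Myh9.

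Of 12 linkers of membrane and adhesion sites, 4 decreased (33.3%) and 3 increased (25.0%) in total RNA, and 7 decreased (58.3%) and 1 increased (8.33%) in RPF (medians 0.01 and -0.26). Evl, a protein that promotes filament growth, fell most (-1.20 ± 0.07, adjusted p = 1.4e-05), the adhesion protein Pxn rose most (0.63 ± 0.08, adjusted p = 0.00043), and in TE the linker Ezr fell most (-0.84 ± 0.12, adjusted p = 0.00051).

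Of the 3 genes for SRF and its cofactors 0 passed in total RNA with edgeR's quasi-likelihood test, 0 at an unadjusted p under 0.05 and 0 with DESeq2 or edgeR's exact test, and 1, the cofactor Mkl2, decreased in RPF (-0.61 ± 0.08, adjusted p = 0.0012); this gene was named after its value was seen. Of 11 tubulin and stathmin genes, 3 decreased and 3 increased in total RNA (27.3% each, median -0.27), and 2 decreased (18.2%) and 1 increased (9.09%) in RPF (median -0.12). Tubb5 fell from 1765 ± 114 to 1208 ± 19.4 CPM (-0.55 ± 0.06, adjusted p = 0.00028), and Tubb6 rose from 1.28 ± 0.313 to 7.55 ± 0.555 CPM (2.56 ± 0.19, adjusted p = 3.5e-05). In TE, Tubg1 fell (-0.68 ± 0.13, adjusted p = 0.0047) and Tubb2a rose (0.71 ± 0.17, adjusted p = 0.02, in 1 of 6 fits without 1 library). Of 9 lamin and septin genes, 3 decreased (33.3%) and 2 increased (22.2%) in total RNA (median 0.11), and 4 decreased (44.4%) and 2 increased (22.2%) in RPF (median -0.05). Sept6 fell most (-1.50 ± 0.08, adjusted p = 1.4e-05) and its TE rose (0.49 ± 0.12, adjusted p = 0.02, in 3 of 6 such fits), Sept2 rose most in total RNA (0.24 ± 0.05, adjusted p = 0.0048), and Sept1 fell in TE (-0.33 ± 0.09, adjusted p = 0.044, in 1 of 6).

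**Figure D4:**
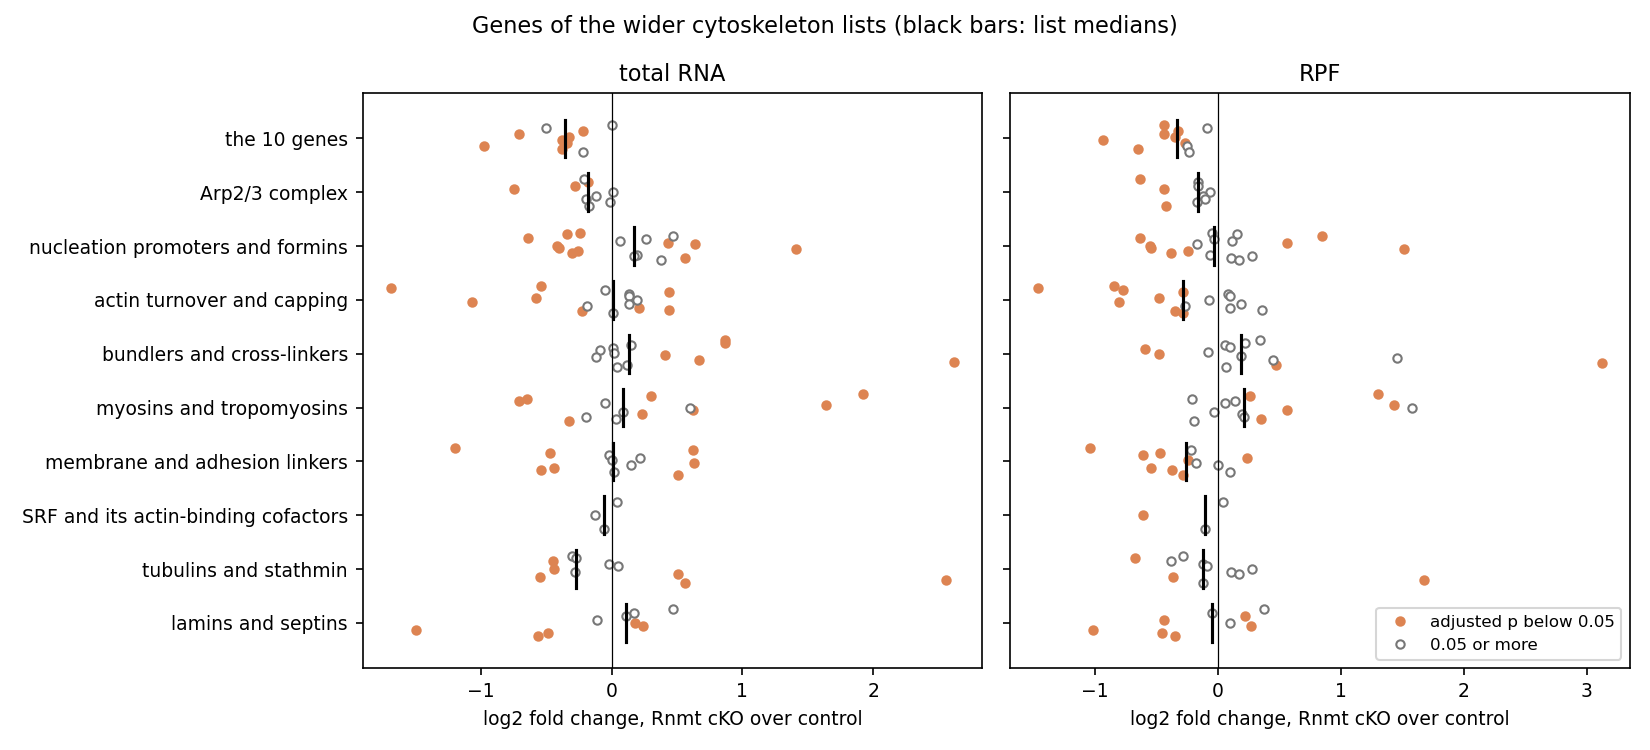
Each point is 1 gene of a list, placed by its log2 fold change between Rnmt cKO and control in total RNA (left) and RPF (right), filled where the adjusted p was below 0.05, with list medians as black bars. The 10 genes have medians of -0.36 and -0.33 and no value above 0.

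Markers of other cells were measured beside these results, since proteins of this set are made by other cell types too. The summed level of 6 B cell genes was 294, 290 and 297 CPM in control total RNA and 321, 308 and 210 CPM in Rnmt cKO, with Ighm as the most abundant gene. In RPF it was 125, 114 and 178 CPM in control and 291, 323 and 87.1 CPM in Rnmt cKO. Rnmt cKO replicate 3 thus held less of these markers than the other Rnmt cKO libraries, and the genotypes overlapped. Of 5 B cell genes tested in total RNA 2 increased and 1, Ighm, decreased in Rnmt cKO, beside 26.3% and 28.0% of all genes, and of 6 tested in RPF 2 increased, beside 14.1%. Both increases in each were of Ms4a1 and Cd79b. The 2 CD8 T cell genes summed to 21.2, 21.4 and 40.5 CPM in control and 25.8, 22.0 and 10.1 CPM in Rnmt cKO total RNA. The 8 myeloid genes summed to 1.20 to 1.63 CPM and 1.24 to 2.98 CPM, with Cd68 the most abundant and Csf1r and S100a8 at 0 in the 3 control libraries of total RNA.

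The 4 NK cell genes were at 0.262 to 0.315 CPM in control and 1.15 to 1.79 CPM in Rnmt cKO total RNA, which did not overlap at this low level, and Klre1 was the most abundant. The 8 stromal genes summed to 77.1, 72.3 and 86.4 CPM in control and 45.8, 34.2 and 50.5 CPM in Rnmt cKO, nearly all of it Pecam1, a gene that lymphocytes express too, while the collagen gene Col1a2 and Dcn were at 0 in the 3 control libraries of total RNA and Col3a1 and Cdh5 in the 3 Rnmt cKO ones. The 8 CD4 T cell genes summed to 3636, 3570 and 3299 CPM in control and 2541, 2626 and 2981 CPM in Rnmt cKO total RNA, also without overlap. The part of any of these differences in the results on the 10 genes was not tested.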

How the data were processed

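The deposited files held counts of uniquely aligned reads per gene and library, which the authors made by trimming with Cutadapt, removing rRNA and tRNA reads with Bowtie and aligning to mm10 (GENCODE vM12) with STAR 2.5.2b. They also deposited a table with normalised signal per library, used here only to match symbols and the strand (the reverse-strand counts gave the authors' signal up to 1 factor per library), and with fold changes and p-values, which were not used. Columns of per-sample values left out numbered 0. Of all reads, 24.3 to 30.1% in total RNA and 22.9 to 31.0% in RPF aligned to several places and were not counted, and the 4 rows that name no gene held 41.1 to 47.0% and 53.9 to 70.4% of reads. Mitochondrial rRNA held 18.7 to 23.6% and 2.30 to 4.51% of gene counts. Duplicate reads could not be separated.

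Genes over 1 CPM in 3 or more of the 6 libraries of a kind were tested with TMM and the quasi-likelihood test of edgeR 4.0.16 (R 4.3.3), TE as an interaction over 12 libraries, with Benjamini-Hochberg adjustment over all genes tested and a threshold of 0.05. The script was tested on simulated data. RiboDiff, which the study used for TE, was not used. Lengths and sequences came from GENCODE vM21 (1 principal transcript per gene) and RefSeq, tables and figures from Python 3.11.15 with pandas 2.3.3. The annotation version differs from the authors'. The share of counts has all protein-coding genes, mitochondrial ones included, as its denominator.

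The members were selected for their level, and the members and lists were chosen with earlier results of these data known. Named genes were the members, Rnmt, the largest rise and fall past the threshold of each list in total RNA and in TE, and the 5 genes most like Actb; others were named after their values were seen. One list of regulators is not reported here. Replicate numbers came from the labels. Total RNA and RPF libraries of the same genotype and number deviated together (r of 0.113 to 0.378 in all 6 pairs). Deviations were from the mean of the 3 libraries of a group. Positive values for the same number thus force lower ones for other numbers (-0.303 to 0.043), which are no separate evidence. These numbers were taken as pairs for the ratios of RPF to total RNA and in an alternative fit, while the main TE test had no block. With a block for the pairs the TE calls of the 10 members did not change. Of 15 genes of the wider lists called in TE, 13 kept their call and Wdr1 and Tpm1 lost it (adjusted p = 0.071 and 0.055, edgeR's quasi-likelihood test). The labels do not say that the 3 libraries of a group came from separate animals, so p-values measure the spread between these samples.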

Additional observations from a re-analysis of the deposited data

Results flagged for a closer look

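For 3 of the 10 genes the genotype effect differed between RPF and total RNA by the interaction test across all genes. Over all genes tested for TE, 6.57% decreased and 3.24% increased, and over the abundant ones 15.0% and 8.03%. The log2 fold change in RPF minus that in total RNA was -0.44 for Actb, -0.55 for Myh9 and 0.71 for Tmsb10. The value of Tmsb10 rests on 25 to 61 RPF counts per library, and its call was lost in every fit without 1 replicate. Without Rnmt cKO replicate 1 no member passed in TE. Groups held 3 libraries each, so no library was tested as an outlier.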

How the results depend on the processing

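The direction of every called member was the same under every alternative run. In total RNA 6 or 7 of the 10 genes decreased under each alternative and without each replicate, Cfl1 being lost with library size in place of TMM (adjusted p = 0.057) and with edgeR's exact test (0.052). In RPF 6 to 8 decreased; Pfn1 was lost with edgeR's exact test (0.069) and Vim passed with no filter on low counts (0.045). In TE, no filter on low counts left 1 member decreased and 0 increased (Actb and Tmsb10 at adjusted p of 0.077 and 0.056) and 214 genes increased in place of 346. Without 1 replicate, 0 to 2 members decreased and 0 increased in TE, and 415 to 812 genes decreased and 122 to 367 increased. DESeq2, TMM without the 10 genes, TMM without mitochondrial genes, upper-quartile scaling, at least 10 counts in every library and the counts of both strands changed no call of the 10 genes, and no scaling moved the median of all genes by more than 0.05.

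The share of counts held by the 10 genes was 1.60% (control) and 1.40% (Rnmt cKO) in total RNA and 3.30% and 2.40% in RPF when all counts on genes were the denominator, and 2.28% in control total RNA and 2.66% in Rnmt cKO RPF on counts of both strands. Replicate numbers shared by control and Rnmt cKO did not pair them (r of -0.476 to -0.171 in total RNA and -0.12 to 0.284 in RPF). With a replicate block, 7 members decreased in each of total RNA and RPF and 2 in TE, and 2751, 1636 and 635 genes of all. With a block for the pairs of total RNA and RPF libraries instead, 777 genes decreased and 426 increased in TE, in place of 701 and 346. The counts hold uniquely aligned reads only, and the part of shared sequence in the levels was not tested. The 5 to 15 reads of Actg1 in RPF cannot show a small change.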
